A study of Mus musculus with 3 samples.

Results

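The cytosolic ribosomal protein genes were followed through their H3K4me3 peaks in mouse granulosa cells. H3K4me3 is histone H3 trimethylated on lysine 4, a mark found at active gene starts. Members were all protein-coding genes of the mm10 annotation with a symbol of Rpl or Rps followed by a digit, without the Rps6k kinases and without pseudogenes. The rule found 85 of 21887 protein-coding genes. They were 43 large subunit genes, 30 small subunit genes, 11 paralogues named after a subunit gene, and Rps19bp1, which encodes an Rps19-binding protein and not a ribosomal protein. The 73 large and small subunit genes are called subunit genes here.

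Cells came from wild type C57BL/6 females at postnatal day 21 to 28, all primed with 4 IU of eCG, which drives follicle growth. Ovaries were collected before the ovulatory dose of hCG (0 h), and 4 h or 12 h after 5 IU of it, and granulosa cells were released by puncturing follicles. Chromatin immunoprecipitation with an H3K4me3 antibody gave 1 library per time, so no difference below has a replicate check or a test. The sources used here do not say how many mice contributed to a library.

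Each ribosome has a large and a small subunit. The small subunit decodes the mRNA and the large subunit joins amino acids and holds the exit tunnel, and each protein is needed in equal numbers. Their mRNAs mostly begin with a C followed by a run of pyrimidines (the 5′ terminal oligopyrimidine, or TOP, start), through which mTOR signalling and Larp1 control their translation. In granulosa cells the luteinizing hormone signal, which hCG mimics, precedes ovulation and the change into steroid-producing luteal cells.

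The lists held 22236, 23662 and 20669 peaks at 0 h, 4 h and 12 h, covering 8.87, 10.1 and 8.93 Mb. The files give peak positions alone, so the one measure is covered bp, the number of bases of the gene and 5 kb either side that lie in peaks. Depth and the height of the mark are unknown. Of 9 granulosa markers, 7, 8 and 6 had a peak at 0 h, 4 h and 12 h, with 11062, 7398 and 3374 covered bp in sum. Amh, a defining marker, had none. Of the markers of other cells, 1, 2 and 2 of 4 theca, 1, 1 and 1 of 7 oocyte, 1, 2 and 1 of 7 leukocyte, 1, 2 and 1 of 7 endothelial, 0, 1 and 1 of 6 stromal and 2, 1 and 1 of 4 epithelial genes had a peak. Their summed covered bp at 0 h, 4 h and 12 h were 903, 3237 and 1956 for theca, 810, 1166 and 530 for oocyte, 838, 1668 and 891 for leukocyte, 302, 517 and 164 for endothelial, 0, 139 and 192 for stromal and 905, 613 and 256 for epithelial genes. Star gave 0, 1567 and 757 bp of the theca sums at 0 h, 4 h and 12 h. Cyp17a1, Insl3, Pecam1, Cdh5 and the Zp genes were at 0 throughout. The part of these cell types in the results below was not tested.

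The starts of the genes the results turn on are shown first, from RefSeq (GRCm38.p6). Each stretch runs 5′ to 3′ on the gene's strand, with 60 bases before the annotated start and 20 from it onward. Capitals mark the run of a C and at least 4 further pyrimidines that begins nearest the start, within 20 bases of it. Rpl31, Rps27l and Rpl39 also hold longer runs that begin within 20 bases of the start, of 13, 9 and 8 bases. A stretch without capitals has no such run. The first 5 belong to the 4 subunit genes with the highest ratios at 4 h and to Rpl35, which gained its peaks then.
Rps10 (chr17:27635225-27635304, minus strand): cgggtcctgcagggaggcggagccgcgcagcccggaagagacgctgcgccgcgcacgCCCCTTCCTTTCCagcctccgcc
Rpl7a (chr2:26910747-26910826, plus strand): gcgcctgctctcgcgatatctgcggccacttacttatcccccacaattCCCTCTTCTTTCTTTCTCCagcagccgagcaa
Rpl13 (chr8:123102290-123102369, plus strand): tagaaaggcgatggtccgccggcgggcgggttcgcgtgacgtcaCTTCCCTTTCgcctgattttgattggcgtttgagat
Rpl31 (chr1:39367791-39367870, plus strand): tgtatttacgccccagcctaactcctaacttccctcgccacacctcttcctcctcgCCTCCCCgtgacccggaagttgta
Rpl35 (chr2:39005112-39005191, minus strand): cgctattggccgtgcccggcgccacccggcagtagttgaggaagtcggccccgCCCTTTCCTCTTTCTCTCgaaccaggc
Rpl38 and Rpl24 had the most covered bp of all members, and Rps28 had fewer covered bp at both later times than at 0 h.
Rpl38 (chr11:114668520-114668599, plus strand): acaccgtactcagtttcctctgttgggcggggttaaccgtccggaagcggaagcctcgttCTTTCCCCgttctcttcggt
Rpl24 (chr16:55966215-55966294, plus strand): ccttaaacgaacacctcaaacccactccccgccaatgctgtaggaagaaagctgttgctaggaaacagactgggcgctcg
Rps28 (chr17:33824543-33824622, minus strand): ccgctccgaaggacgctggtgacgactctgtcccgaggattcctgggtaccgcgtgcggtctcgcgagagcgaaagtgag
The next 7 set subunit genes beside the paralogues named after them.
Rps27 (chr3:90213629-90213708, minus strand): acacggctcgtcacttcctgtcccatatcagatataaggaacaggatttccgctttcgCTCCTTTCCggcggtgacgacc
Rps27rt (chr9:114982720-114982799, minus strand): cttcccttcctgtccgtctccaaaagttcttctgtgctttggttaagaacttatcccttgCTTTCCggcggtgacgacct
Rps27l (chr9:66946026-66946105, plus strand): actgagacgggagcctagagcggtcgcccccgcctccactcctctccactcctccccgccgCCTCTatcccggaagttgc
Rpl10 (chrX:74270756-74270835, plus strand): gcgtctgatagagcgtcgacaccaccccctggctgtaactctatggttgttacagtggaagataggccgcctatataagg
Rpl10l (chr12:66284382-66284461, minus strand): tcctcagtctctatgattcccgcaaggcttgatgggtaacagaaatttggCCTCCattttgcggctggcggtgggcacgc
Rpl39 (chrX:37085203-37085282, minus strand): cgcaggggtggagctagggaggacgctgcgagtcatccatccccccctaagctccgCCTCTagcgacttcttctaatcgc
Rpl39l (chr16:10170168-10170247, plus strand): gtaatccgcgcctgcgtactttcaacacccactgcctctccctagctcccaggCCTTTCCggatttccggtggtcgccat

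A pyrimidine run near the start, which the membership rule did not use, was more frequent in subunit genes than in all promoters. Promoters with an annotated start were matched for 54 of the 73 subunit genes and for 17492 of all protein-coding genes. A C at the annotated start followed by 4 or more pyrimidines stood at 10 of the 54 (18.5%), among them Rps10, Rpl35, Rpl38 and Rps27, against 2.18% of all promoters. Within 20 bases of the start, such a run was found in 41 of 54 (75.9%), against 49.8% of all promoters. The longest run had a median of 7.5 bases in subunit genes and 4 in all promoters, and reached 19 bases in Rpl7a and 18 in Rpl35.

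Other motifs were searched on both strands of the 250 bases before and 50 after each start. The ETS core CCGGAAG was present in 21 of 54 subunit promoters (38.9%), against 12.1% of all promoters and 1900 of the 9501 with a peak within 1 kb of the start. It stands in the Rps10, Rpl31 and Rpl38 stretches above. The GC box GGGCGG was present in 57.4% of subunit promoters and 70.0% of promoters with a peak (47.2% of all). The shares for AAGATGG, a YY1 core, were 14.8% and 7.39% (6.38% of all), and those for the E-box CACGTG were 11.1% and 10.5% (7.87% of all). ACTACA was present in 18.5% and 10.6% (10.5% of all), and TATAAA in 7.41% and 5.88% (13.1% of all). At the usual TATA position, 40 to 16 bases before the start on the gene's strand, TATAAA was found in 0 of 54 subunit promoters and 0.916% of promoters with a peak. Motifs were searched separately, so neighbouring ones can share bases. Promoters of subunit genes had a median GC content of 57.4%, against 61.6% for promoters with a peak, and a median observed over expected CpG ratio of 0.87, against 0.80.

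Nearly every ribosomal protein gene carried the mark at every time. A peak lay in the window of 72, 73 and 73 of the 73 subunit genes at 0 h, 4 h and 12 h. Over all 85 members the share was 94.1% (95% Clopper-Pearson interval 86.8 to 98.1), 96.5% (90.03 to 99.3) and 95.3% (88.4 to 98.7), against 56.3%, 58.3% and 56.2% of all protein-coding genes. These intervals cover counting error alone. Rpl35, whose protein lies at the exit tunnel where the signal recognition particle docks, was the 1 subunit gene without a peak, at 0 h.

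The mark was also broader at these genes than over all protein-coding genes. Subunit genes with a peak had a median of 1145.5, 1311 and 1191 covered bp at 0 h, 4 h and 12 h, against 852, 916 and 845 bp for all protein-coding genes with a peak. Medians were 1123, 1322 and 1223 bp for large subunit genes and 1175.5, 1309.5 and 1142.5 bp for small subunit genes. This breadth was not particular to them. Translation factor genes had medians of 1113, 1352 and 1169 bp, and ribosome biogenesis genes of 1067, 1184.5 and 1023.5 bp. Single subunit genes spread from 480 to 1997 bp at 0 h, from 741 to 2455 bp at 4 h and from 383 to 1973 bp at 12 h.

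Rpl24, which joins the large subunit late in its assembly in yeast, had 1997, 2455 and 1917 covered bp at 0 h, 4 h and 12 h. Rpl38, needed in mice for translation of Hox mRNAs, had 1955, 2036 and 1973 bp. Rpl41, among the smallest ribosomal proteins, had 1912, 2108 and 1863 bp. These 3 were the subunit genes with the highest mean covered bp, and the windows of all 3 also held the start of another gene. At the low end, Rpl36 had 611, 1132 and 516 bp, Rpl7a 480, 1084 and 785 bp, and the X-linked Rpl36a 755, 919 and 943 bp. Rps19bp1, the non-ribosomal member, had 1742, 2087 and 2099 bp.

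The order of the genes by breadth was partly kept over time. Across subunit genes, covered bp correlated with Pearson's r = 0.62 and Spearman's rho = 0.50 between 4 h and 0 h (72 genes). The values were 0.69 and 0.64 between 12 h and 4 h (73 genes), and 0.64 and 0.56 between 12 h and 0 h (72 genes). Genes are not replicates, and neighbouring windows can share peaks, so these are descriptions.

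**Figure D1:**
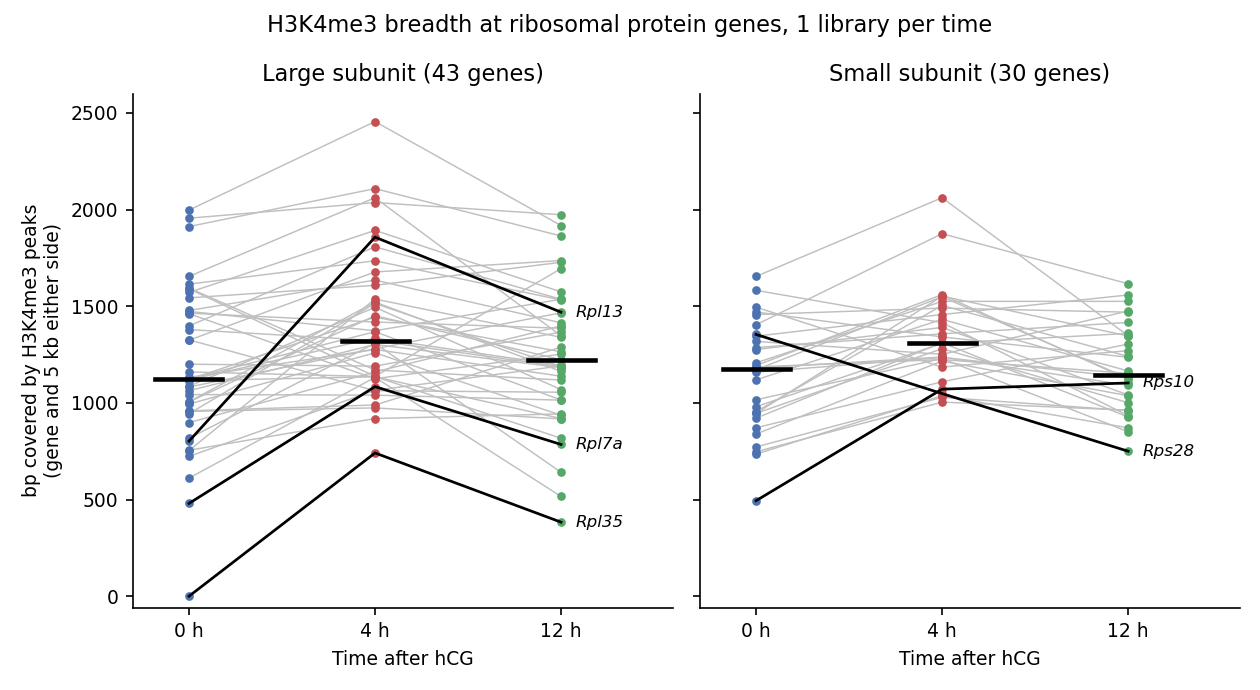
Covered bp of each large subunit gene (left) and small subunit gene (right) at 0 h, 4 h and 12 h after hCG, where a point is a gene, grey lines join a gene's 3 values, and thick bars are medians of genes with a peak. The medians are highest at 4 h in both panels (1322 bp and 1309.5 bp), and the black lines follow Rpl13, Rpl7a and Rpl35 on the left and Rps10 and Rps28 on the right.

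After 4 h of hCG, most ribosomal protein genes had more covered bp than before it. Of the 80 members with a peak at both times, 63 had more bp at 4 h and 17 had fewer. The share with more was 78.8%, against 61.3% of all protein-coding genes. The median log2 ratio of 4 h over 0 h was 0.28, and 0.16 after subtracting the median of all protein-coding genes (0.12), with quartiles of −0.09 and 0.30. Within 1 kb of the start alone the centred median was −0.039, so its direction depends on the window. All ratios of single genes below are centred in this way. Large subunit genes had a median of 0.15 and small subunit genes of 0.23. Among 7460 genes with a mean breadth in the range of the subunit genes the median was 0.02.

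Few members changed by 2-fold or more at 4 h. Of 80 members, 4 were at least 2-fold broader, against 5.3% of all protein-coding genes, and 0 were at least 2-fold narrower, against 3.68%. Of the 5 members without a peak at 0 h, 2 gained one (Rpl35 and the paralogue Rps27rt), against 7.87% of all genes without a peak. A peak was lost at 0 members, against 2.58% of all genes with one. The 2-fold shares are no higher than the background, and most gains in covered bp were smaller than that.

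Rpl13, a large subunit protein whose gene hosts a small nucleolar RNA, had 1857 covered bp at 4 h, against 802 bp at 0 h, a centred log2 ratio of 1.10. Rpl7a, host of several small nucleolar RNAs, had 1084 bp at 4 h, against 480 bp at 0 h (1.06). Rps10, which is ubiquitinated on stalled ribosomes, had 1071 bp at 4 h, against 494 bp at 0 h, just past 2-fold after centring. The fourth was Rps23rg1, taken up with the paralogues below. Rpl31, at the exit tunnel, had 1537 bp at 4 h, against 753 bp at 0 h (0.91). Rpl35 had 741 bp at 4 h, against 0 bp at 0 h. Of these, 443 bp lay inside the gene from 354 bp past its start. The other 298 bp lay inside the neighbouring gene Arpc5l, 352 bp from its nearer boundary. Whether that boundary is the start of Arpc5l was not determined.

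Some subunit genes went the other way at 4 h, counted over the whole window. Rpl12, at the base of the stalk that recruits translation factors, had 1137 bp at 4 h, against 1590 bp at 0 h (−0.60). Rpl35a, mutated in some families with Diamond-Blackfan anaemia in humans, had 1170 bp at 4 h, against 1594 bp at 0 h (−0.56). Rps28, which lies near the mRNA exit, had 1048 bp at 4 h, against 1354 bp at 0 h (−0.49). Rpl37, a zinc-binding protein, had 1125 bp at 4 h, against 1461 bp at 0 h (−0.49). Rps19, the gene most often mutated in Diamond-Blackfan anaemia in humans, had 1185 bp at 4 h, against 1495 bp at 0 h (−0.45). These are the 5 lowest ratios, all short of 2-fold. Rpl12, Rpl35a and Rps28 have the start of another gene within 1 kb upstream.

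Between 4 h and 12 h the members moved back with the rest of the genes. Of 81 members with a peak at both times, 20 had more bp at 12 h and 60 had fewer. The share with more was 24.7%, against 35.9% of all protein-coding genes. The median log2 ratio of 12 h over 4 h was −0.18, and −0.04 after subtracting the median of all genes (−0.14). A 2-fold change was seen in 0 members, against 3.36% of all genes for broader and 4.48% for narrower. Rpl37rt, a paralogue, lost its peak, against 6.22% of all genes with one, and 0 members gained one, against 3.59%.

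The lowest ratios were at Rpl36, with 516 bp at 12 h against 1132 bp at 4 h (−0.99), and at Rpl6, with 641 bp at 12 h against 1308 bp at 4 h (−0.89). Rpl35 had 383 bp at 12 h, against 741 bp at 4 h (−0.81), and its gene body peak was then the one peak left. Rpl13a, which is released from the ribosome after interferon-gamma in human cells, had 1347 bp at 12 h, against 2061 bp at 4 h (−0.47).

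Rpl12 had the highest ratio, with 1694 bp at 12 h against 1137 bp at 4 h (0.71), and so was back near its 1590 bp of 0 h. Rpl34 had 1288 bp at 12 h, against 989 bp at 4 h (0.52). Rpl10, which joins the large subunit in the cytoplasm as one of the last proteins, had 1398 bp at 12 h, against 1160 bp at 4 h (0.41). Rps23, at the decoding centre, had 1475 bp at 12 h, against 1251 bp at 4 h (0.38). Rps27, a zinc-finger protein, had 1304 bp at 12 h, against 1109 bp at 4 h (0.37).

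Set against 0 h, the 12 h library differed little at these genes. Of 79 members with a peak at both times, 43 had more bp at 12 h and 36 had fewer. The share with more was 54.4%, against 48.1% of all protein-coding genes, and the centred median was 0.03. Of the members, 2 were at least 2-fold broader, against 5.35% of all genes, and 0 were narrower, against 4.93%. Peaks were gained at 2 (Rpl35 and Rps27rt) and lost at 1 (Rpl37rt), against 5.89% and 4.81%. Rps10 had 1103 bp at 12 h, against 494 bp at 0 h (1.18), Rpl13 had 1469 bp against 802 bp (0.89), Rpl31 had 1339 bp against 753 bp (0.85) and Rpl19, part of a bridge between the subunits, had 1191 bp against 723 bp (0.74). At the other end, Rps28 had 750 bp at 12 h, against 1354 bp at 0 h (−0.83). Rpl27 had 817 bp at 12 h, against 1160 bp at 0 h (−0.49), and Rpl35a had 1118 bp at 12 h, against 1594 bp at 0 h (−0.49). These falls were smaller in the 5 kb downstream of the start. There Rps28 had 750 bp at 12 h against 815 bp at 0 h. Rpl27 had 817 bp against 1019 bp and Rpl35a 1118 bp against 1132 bp. The comparisons share libraries, so their values are not independent of each other.

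Over the 3 times, 45 of the 72 subunit genes with a peak throughout had the most covered bp at 4 h (62.5%), 16 at 12 h and 11 at 0 h. Of all 11607 such protein-coding genes, 46.4% had the most at 4 h. Rps6, the target of the S6 kinases, was one of the 45, with 955, 1504 and 1240 bp at 0 h, 4 h and 12 h.

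The marked bases lay almost wholly downstream of the start. Within 1 kb either side of the annotated start, more bp were covered downstream than upstream in 52 of 53 subunit genes with a peak there at 0 h (98.1%), and in 53 of 54 at 4 h and at 12 h (98.1% each). The shares over all protein-coding genes were 82.6%, 83.8% and 83.7%. Any upstream base was covered in 18, 14 and 14 of the 54 subunit genes (33.3%, 25.9% and 25.9%), against 43.0%, 44.4% and 39.2% of the 9501 genes with a peak within 1 kb of the start. Where a gene had several annotated starts, the one with the most covered bp was used, for subunit genes and all others alike.

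At 8 subunit genes another gene starts within 1 kb upstream on the other strand. These are Rpl12 (beside Lrsam1), Rpl18 (Sphk2), Rpl35a (Iqcg), Rpl7a (Med22), Rpl9 (Lias), Rps18 (Vps52), Rps27 (Rab13) and Rps28 (Ndufa7). Upstream bases were covered in 4, 3 and 2 of these 8 at 0 h, 4 h and 12 h. They were covered in 14, 11 and 12 of the 46 others.

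The covered stretch was longer in the subunit genes than over all genes. In 50 bp bins around the start, coverage was highest at 725, 675 and 675 bp downstream, where 96.1%, 99.2% and 99.2% of subunit gene bases were in peaks at 0 h, 4 h and 12 h. The highest bins over the 9501 genes held 65.5%, 69.3% and 66.4%, at 325, 175 and 325 bp. At least 50% of subunit genes were covered from 175 to 1125 bp at 0 h, from 125 to 1275 bp at 4 h and from 125 to 1175 bp at 12 h. For all genes these bins ended at 675, 675 and 625 bp. Within 50 bp of the start itself, 7.19%, 5.87% and 7.44% of subunit gene bases were covered, against 10.9%, 13.9% and 12.6%.

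**Figure D2:**
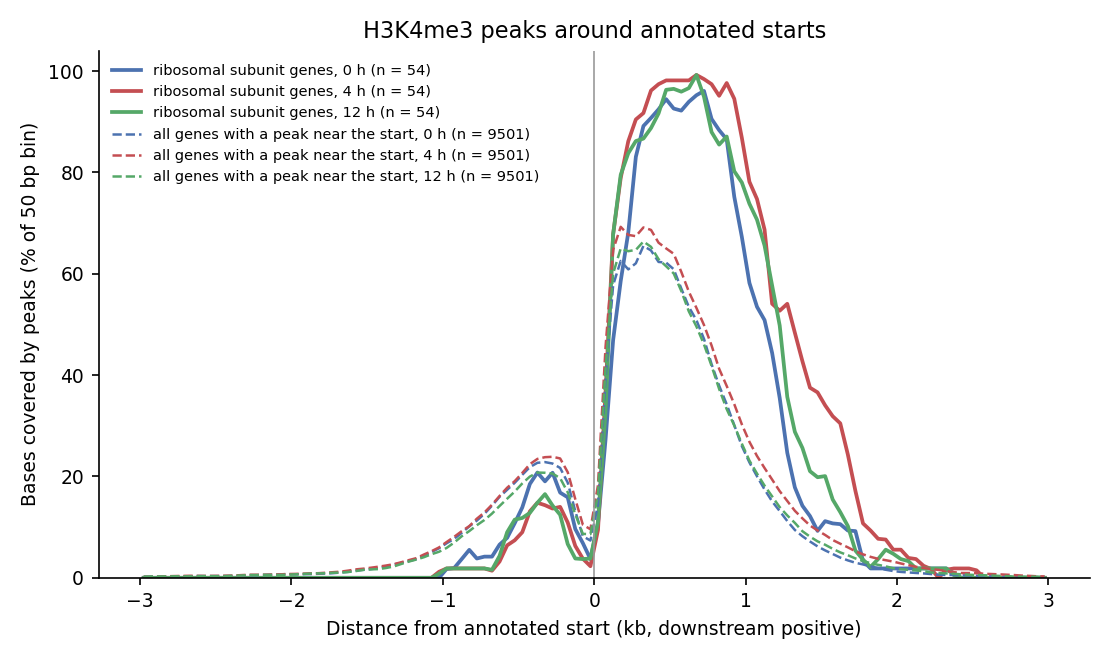
Share of bases in H3K4me3 peaks (percent, 50 bp bins) against distance from the annotated start (kb, downstream positive), for 54 ribosomal subunit genes (solid) and all 9501 protein-coding genes with a peak within 1 kb of the start (dashed), at 0 h, 4 h and 12 h. The solid curves reach 96.1% to 99.2% and extend farther downstream than the dashed ones, farthest at 4 h.

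At 4 h the far edge of the covered stretch moved more than in all genes. The median shift of the near edge was close to that of all genes. The last covered base within 3 kb of the start was a median of 1173, 1396 and 1264 bp downstream at 0 h, 4 h and 12 h, against 831.5, 852 and 828 bp in all genes. It lay farther downstream at 4 h than at 0 h in 44 of 53 subunit genes (83.0%), against 56.4% of all genes, with a median shift of 156 bp against 15 bp. It lay nearer the start at 12 h than at 4 h in 45 of 54 subunit genes (83.3%), against 57.4% of all genes, with a median shift of −151.5 bp against −21 bp. At 12 h against 0 h it was farther in 31 and nearer in 22 of 53 subunit genes, against 48.7% and 50.7% of all genes. The first covered base lay a median of 127, 92.5 and 95.5 bp from the start at 0 h, 4 h and 12 h, against 80, 72 and 77 bp in all genes. Its upper quartiles were 242, 138.5 and 138 bp, against 171, 133 and 149 bp. It lay nearer the start at 4 h than at 0 h in 33 of 53 subunit genes (62.3%), against 56.8% of all genes, with a median shift of −6 bp against −4 bp. In the bin at 125 bp, 67.8% of subunit gene bases were covered at 4 h, against 46.9% at 0 h, and in the bin at 1025 bp 78.1% at 4 h, against 58.2% at 0 h. The shares of all genes in these bins are not given here.

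Between 1 and 2 kb downstream of the start, 37, 52 and 46 of the 54 subunit genes had a peak at 0 h, 4 h and 12 h (68.5%, 96.3% and 85.2%), against 29.2%, 33.4% and 29.6% of all genes with a peak near the start. The mean covered length in this kilobase was 191, 363 and 266 bp, against 80.5, 111 and 89.0 bp. The plan named only covered bp upstream and downstream of the start, and not this kilobase. Of the zones compared, it had the largest mean change in subunit genes at 4 h. Of the 52 subunit genes with a peak there at 4 h or 0 h, 45 had more bp at 4 h and 7 had fewer (86.5% and 13.5%), against 63.7% and 35.9% of all such genes.

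The comparison was also limited to genes broad in the first kilobase. Among genes with at least 788 covered bp, averaged over the times, in the first kilobase downstream and a peak in the next one, 35 of 39 subunit genes (89.7%) had more bp in that next kilobase at 4 h than at 0 h, against 880 of 1396 of all genes (63.0%). The pattern was seen in both subunits, in 25 of 31 large and 20 of 21 small subunit genes with a peak there. At 12 h against 4 h, 10 of 52 subunit genes had more bp there and 42 had fewer (19.2% and 80.8%), against 36.7% and 62.7% of all such genes. At 12 h against 0 h, 32 of 47 had more and 15 had fewer (68.1% and 31.9%), against 52.8% and 46.7%.

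Zones other than the second kilobase changed less in mean covered length. In the first kilobase downstream, 53, 54 and 54 of the 54 subunit genes had a peak at 0 h, 4 h and 12 h, against 87.9%, 90.7% and 87.2% of all genes with a peak near the start. The subunit genes averaged 770, 858 and 813 covered bp there, against 496, 538 and 501 bp in all such genes. More bp were covered at 4 h than at 0 h in 38 subunit genes and fewer in 15, against 5389 and 3516 of the 9501 genes. In the kilobase upstream the subunit genes averaged 98.1, 65.9 and 69.1 bp, against 152, 160 and 139 bp. From 2 to 5 kb downstream they averaged 22.7, 22.5 and 11.9 bp, against 7.12, 14.8 and 9.54 bp. The libraries differ in total covered length and in an unknown depth, and whether depth had a part in the shift was not tested.

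In the second kilobase downstream Rpl13 had 464, 1000 and 719 covered bp at 0 h, 4 h and 12 h, so at 4 h it was covered over its full length. Rpl31 had 198, 734 and 726 bp and kept its 4 h value at 12 h. Rps3, a small subunit protein at the mRNA entry, had 320, 697 and 414 bp, and Rpl5, which carries the 5S rRNA and binds Mdm2, had 124, 564 and 361 bp. Both had their highest value at 4 h and an intermediate one at 12 h. Rpl11, the partner of Rpl5 in that complex, had 546, 503 and 478 bp and was among the few with fewer at 4 h.

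Several subunit genes had no covered base in the second kilobase at 0 h. Rps2 had 0, 453 and 215 bp, Rpl37 had 0, 414 and 356 bp, and Rpl23, which also binds Mdm2, had 0, 322 and 377 bp. Rps10 had 0, 180 and 360 bp and Rpl10 had 0, 245 and 473 bp, both with the most at 12 h. Rpl37 had fewer bp in its whole window at 4 h but more here. Rpl38 (602, 438 and 411 bp), Rpl12 (210, 89 and 418 bp) and Rps19 (270, 21 and 128 bp) had fewer at 4 h than at 0 h. Rpl35 and Rps25 had 0 bp there at every time. The genes named in this and the preceding paragraph were chosen after their values were seen.

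**Figure D3:**
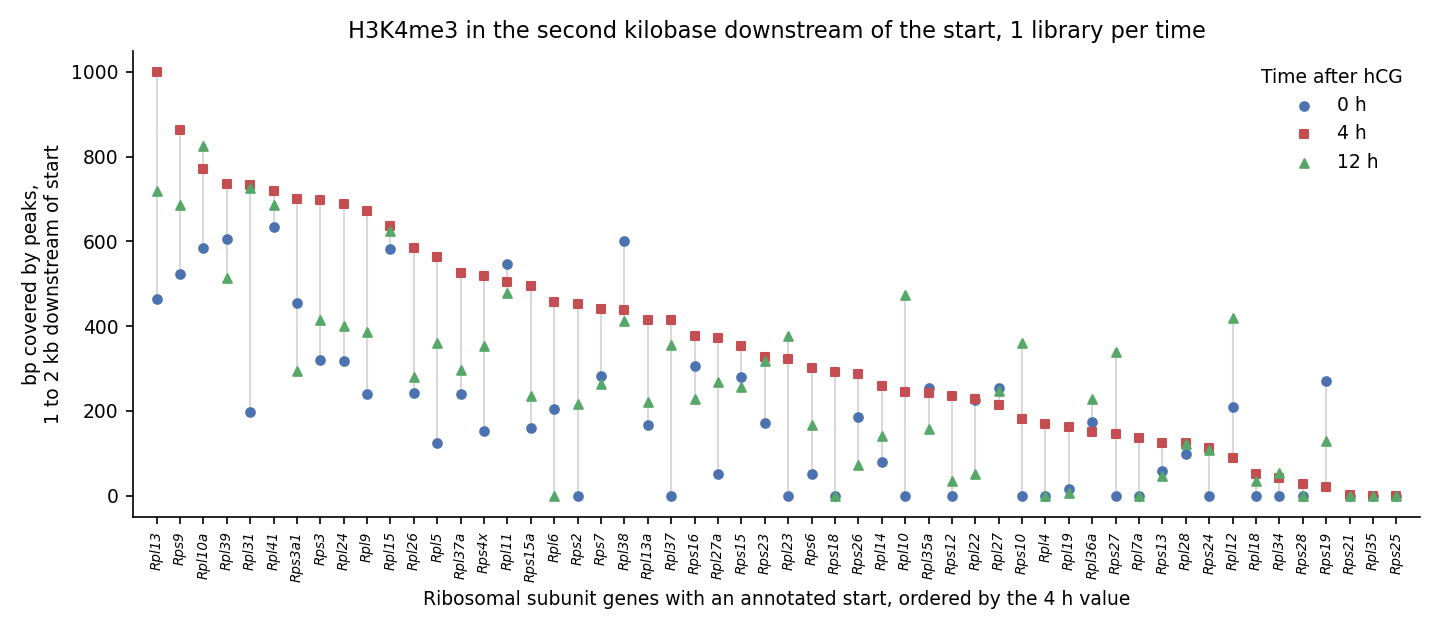
Covered bp between 1 and 2 kb downstream of the annotated start at 0 h (circles), 4 h (squares) and 12 h (triangles) for the 54 ribosomal subunit genes with an annotated start, ordered by the 4 h value. The 4 h value lies above the 0 h value in 45 genes and below it in 7, and Rpl13 is covered over the full 1000 bp at 4 h.

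The paralogues were divided between marked and unmarked genes. Of 11, a peak lay in the window of 7, 8 and 7 at 0 h, 4 h and 12 h. Rpl22l1 had 938, 954 and 817 bp, Rps27l, which p53 can induce, had 1158, 1214 and 976 bp, Rpl36al, the autosomal copy of the X-linked Rpl36a, had 1698, 1443 and 1531 bp, and Rpl7l1 had 1472, 1917 and 1434 bp. These 4 had peaks within 1 kb of their own starts at every time. Most of the Rpl36al bases lay outside the gene, on the side of its divergent neighbour Mgat2, with 1045, 1054 and 1094 bp there and 653, 389 and 437 bp in its own peaks at 0 h, 4 h and 12 h. Part of the Rpl7l1 peaks lay near the start of 2310039H08Rik.

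Rpl10l and Rpl39l, best known from the testis, had 0 covered bp at every time, and so did Rpl32l. The X-linked genes that the first 2 are named after were marked throughout, Rpl10 with 898, 1160 and 1398 bp and Rpl39 with 1478, 1635 and 1414 bp. In the promoters printed above, the longest pyrimidine run near the start has 5 bases in Rpl10l, 8 in Rpl39 and 7 in Rpl39l. Rpl10 has no run of a C and at least 4 further pyrimidines there. The longest stretch of bases shared by either pair of promoters was 8 bases.

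At 3 further paralogues the covered bases lay away from their own start, with 0 bp within 1 kb of it at every time. Those of Rpl3l, a muscle form of Rpl3, numbered 409, 367 and 303 bp and lay near the starts of Ndufb10 and Msrb1. Those of Rps23rg1, with 162, 639 and 583 bp, lay inside Camsap3, 468 to 714 bp from its nearer boundary. Whether that boundary is the start of Camsap3 was not determined. The 2-fold change of Rps23rg1 (1.86 for 4 h over 0 h and 1.87 for 12 h over 0 h) was thus not at its own start. Those of Rpl37rt, with 136, 266 and 0 bp, lay inside the gene over 6.7 kb from its start.

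Rps27rt, a copy by retrotransposition according to its symbol, had 0, 558 and 326 bp. The 4 h peak lay outside the gene, 332 bp inside one end of Osbpl10 that spans the locus, and the 12 h peak lay at its own start. The Rps27rt and Rps27 promoters share 38 bases, beginning at the annotated start of Rps27rt and 1 base past that of Rps27. Reads from such a shared stretch can align to either gene, so the 326 bp at the start of Rps27rt are uncertain.

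**Figure D4:**
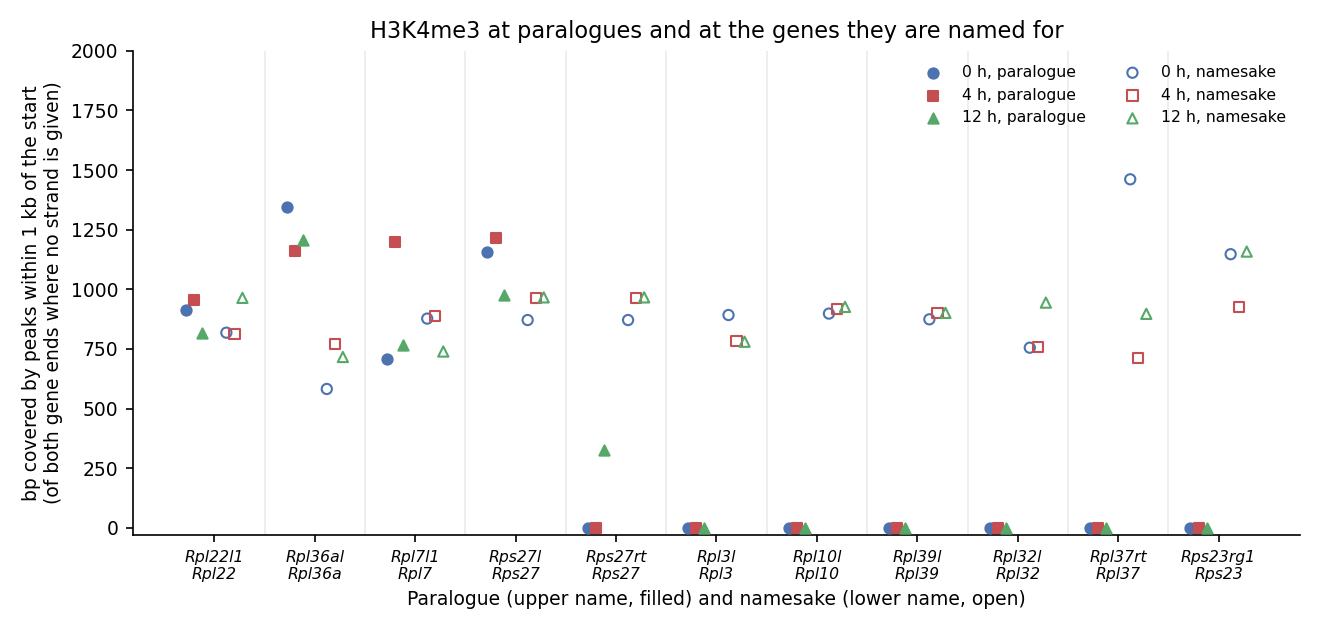
Covered bp within 1 kb of the start for each paralogue (filled) and the subunit gene it is named after (open), at 0 h (circles), 4 h (squares) and 12 h (triangles), counting both gene ends where no strand was given. The first 4 paralogues from the left have between 709 and 1343 bp, Rps27rt has 326 bp at 12 h alone, and the other 6 stay at 0 bp beside marked namesakes.

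Neighbouring genes share these windows. Of 85 members, 62 have another protein-coding gene in the window and 28 have another gene's start there. The windows of 4 members overlap that of another member, among them Rps2 and Rpl3l. Subunit genes are short, with a median length of 3164 bp, against 17169 bp for all protein-coding genes.

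Member windows held 161, 157 and 152 peaks at 0 h, 4 h and 12 h, with median widths of 451, 639 and 527 bp. Of the 4 h peaks at members, 81.5% overlapped a 0 h peak by at least 1 bp, against 73.8% of all 4 h peaks, and of the 0 h peaks 87.6% overlapped a 4 h peak, against 82.0% of all. Of the 12 h peaks at members, 92.1% overlapped a 4 h peak, against 84.4% of all, and of the 4 h peaks 82.8% overlapped a 12 h peak, against 72.3% of all. Of the 12 h peaks at members, 81.6% overlapped a 0 h peak, against 78.5% of all, and of the 0 h peaks 79.5% overlapped a 12 h peak, against 75.2% of all. With a reciprocal overlap of 50% the 6 shares lay between 60.2% and 71.1% for member peaks and between 50.5% and 59.6% for all peaks. Member peaks were wider than peaks in general, and the part of width in these shares was not tested.

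Of the 7 cytosolic ribosomal protein genes with other symbols, all had a peak at each time, with median covered bp of 1252, 1296 and 1189. Fau, which encodes Rps30 fused to a ubiquitin-like protein, had 549, 1242 and 324 bp, and was 2-fold broader at 4 h over 0 h (1.06) and 2-fold narrower at 12 h over 4 h (−1.80). It was 1 of 7 in each case, against 5.3% and 4.48% of all genes. Its window has the same covered bases as that of Mrpl49, so the 2 genes cannot be told apart. Rplp2, of the stalk, had 1597, 1999 and 2242 bp.

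The related lists differed in their medians. All 43 translation factor genes had a peak at each time, with centred median ratios of 0.24 for 4 h over 0 h, −0.10 for 12 h over 4 h and 0.14 for 12 h over 0 h. The 48 ribosome biogenesis genes also all had one, with medians of 0.01, 0.06 and −0.02. The 78 mitochondrial ribosomal protein genes had peaks throughout as well, with medians of −0.10, −0.01 and −0.04 and a smaller breadth of 833.5, 887.5 and 768 bp at 0 h, 4 h and 12 h. No test sets these lists apart from each other.

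Few genes of these lists passed 2-fold, with shares near or under those of all genes. Of the 43 translation factor genes, 1 was narrower at 4 h over 0 h (Eif2b1, a subunit of the eIF2 exchange factor), against 3.68% of all genes, and 1 at 12 h over 0 h (Eif3m, a subunit of eIF3), against 4.93%. Of the 48 biogenesis genes, Rrp12 was broader at 12 h over 0 h (1.25), against 5.35% of all genes. Of the 78 mitochondrial genes, 3 were broader at 4 h over 0 h (Mrpl34, Mrpl43 and Mrpl49), against 5.3% of all genes, 2 narrower at 12 h over 4 h (Mrpl27 and Mrpl49), against 4.48%, and 2 narrower at 12 h over 0 h (Mrpl27 and Mrps35), against 4.93%.

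Genes that control TOP mRNAs and growth signalling had a peak in 10, 10 and 9 of 10 cases at 0 h, 4 h and 12 h, with centred medians of 0.37, 0.09 and 0.35 for 4 h over 0 h, 12 h over 4 h and 12 h over 0 h. Eif4ebp1, the mTOR-controlled repressor of cap-dependent translation, had 545, 1688 and 1384 bp (1.51 for 4 h over 0 h). Larp1, which binds the TOP start, had 616, 1252 and 1293 bp (1.09 for 12 h over 0 h). Rps6kb2, an S6 kinase, had 165, 463 and 0 bp, 2-fold broader at 4 h over 0 h (1.37) and lost at 12 h. Of the 10 genes, 2 were broader at 4 h over 0 h, against 5.3% of all genes. At 12 h over 0 h, 2 of 9 were broader, against 5.35%. The 1 loss stands beside 6.22% of all genes at 12 h over 4 h and 4.81% at 12 h over 0 h. With 10 genes, these shares rest on 1 or 2 genes each.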

How the data were processed

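The authors deposited a peak list per library, with chromosome, start, end and name, whose unit is bp positions, and no score, signal or depth. The submitters' processing notes name CASAVA 1.8, Bowtie2 2.2.3, MACS2 2.0.9 and mm10. Threshold and any use of input are not stated there. Libraries had 18 PCR cycles, per the labels. Peak names carry a nolambda tag at 0 h and 4 h and none at 12 h, and whether the setting differed is unknown. By its label the library of 12 h came from another lane, so lane and time cannot be told apart for 12 h.

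Peaks on the 19 autosomes, X and Y were counted within each RefSeq (GRCm38.p6) gene and 5 kb either side, with Python 3.11.15, numpy 2.4.6, pandas 2.3.3 and scipy 1.17.1. Ratios are log2 of covered bp in genes with a peak in both libraries, from which the median over all protein-coding genes was subtracted. Broader or narrower means 2-fold or more after centring. With 1 library per time no test was made and no replicate error exists. The counting was tested on simulated peaks. Named members are those with 0 bp at any time, paralogues, the 5 most and 5 least covered, the 5 highest and lowest ratios per comparison, and those gained, lost or past 2-fold, with others marked as chosen later. Rps23rg1 was put with the paralogues once the annotation was seen. The members and lists were chosen with earlier results of these data known. Alternatives were other windows, peak filters, joined peaks, centring, fold, overlap and start choice. Some genes that this rule names are not reported here.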

Additional observations from a re-analysis of the deposited data

How the results depend on the processing

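Of 277 values recomputed, 216 stayed within the limit set for their kind of value, 60 moved and 1 was labelled reversed. A ratio of a single gene counted as kept when it differed by less than a fixed amount, even if its sign changed. Rps10 at 12 h over 4 h counted as kept, with 0.18 in the full window and −0.19 within 1 kb of the start. Rpl7a at 12 h over 4 h counted as moved, with −0.33 as reported and 0.42 with joined peaks. The value labelled reversed is the median 4 h over 0 h ratio, −0.039 within 1 kb of the start against 0.16 in the full window, and the cause was not tested. For members without an annotated start, the 1 kb setting took both gene ends, here and below. The counts of subunit genes with more or fewer bp in the second kilobase downstream kept within 1.5 times under each alternative tried for them (narrow peaks left out, equal numbers of peaks, joined peaks, most upstream start). These alternatives were not planned. Counts below are members gained or broader (up) and lost or narrower (down). The main counts were 6 up and 0 down at 4 h over 0 h, 0 and 1 at 12 h over 4 h, and 4 and 1 at 12 h over 0 h. With a flank of 1 kb, 12 h over 4 h gave 1 up and 3 down and 12 h over 0 h gave 2 down. In the gene body alone, medians were 960, 1206 and 1067 bp, 12 h over 4 h gave 1 up and 2 down, and 12 h over 0 h gave 2 down. Within 1 kb of the start, medians were 881, 911 and 868.5 bp, 4 h over 0 h gave 2 up and 1 down, and 12 h over 4 h gave 1 up and 2 down. Without narrow peaks, the 12 h over 4 h median was −0.11, with 2 down, and 12 h over 0 h gave 0 down; equal numbers of the widest peaks gave the same 2 and 0. With peaks within 1 kb joined, medians were 1359, 1480.5 and 1339 bp, 12 h over 4 h gave 3 down, and 12 h over 0 h gave 7 up and 3 down. In the 23 members with no other gene in the window, 4 h over 0 h gave 1 up, 12 h over 4 h 0 down and 12 h over 0 h 1 up and 0 down. For subunit genes alone, 98.6%, 100% and 100% had a peak, with 0 down at 12 h over 4 h and 2 up and 0 down at 12 h over 0 h. Uncentred medians were 0.28 at 4 h over 0 h and −0.18 at 12 h over 4 h, with 3 down. A fold of 1.5 gave 10 up and 1 down, 1 and 5, and 10 and 3 in the same order of comparisons. With a reciprocal overlap of 50%, the shares of member peaks were 62.4% (4 h in 0 h), 60.2% (0 h in 4 h), 71.1% (12 h in 4 h), 68.8% (4 h in 12 h), 67.8% (12 h in 0 h) and 64.0% (0 h in 12 h). Taking the more covered gene end as start, 100% of subunit genes at 4 h and at 12 h had more covered bp downstream. The cause of the other moves was not tested either.

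No paired analysis was possible because each time has 1 library. The planned comparison of protein sequences was not run. Peak width depends on depth, which is unknown, and absence of a peak is not absence of the mark.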

Other observations

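Ribosomal protein genes have left many pseudogenes, and these were largely without the mark. Of 303 annotated ribosomal protein pseudogenes, a peak overlapped the body of 5, 13 and 3 at 0 h, 4 h and 12 h (1.65%, 4.29% and 0.990%). Of 10306 other pseudogenes, 194, 254 and 190 were overlapped (1.88%, 2.46% and 1.84%). At all 3 times, 0 of the 303 ribosomal protein pseudogenes and 135 of the 10306 others (1.31%) had a peak. Ribosomal protein pseudogenes were shorter, with a median of 526 bp against 936 bp, and the part of length was not tested. Of the 204 ribosomal protein pseudogenes away from protein-coding genes, 3, 7 and 3 had a peak. Rps6-ps4 had 0, 411 and 348 covered bp, Rps10-ps2 had 155, 321 and 0 bp, and Rpl3-ps1 had 0, 177 and 253 bp, all chosen after their values were seen. Reads from such copies can align to the subunit gene or to the pseudogene, so these peaks are uncertain.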
